A study of Homo sapiens with 4 samples.

Results

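Inflammatory cytokine and chemokine genes were examined in RNA from MDA-MB-231 Fluc cells, and 5 of the 10 genes listed (IL6, CXCL1, CXCL2, CXCL3, CXCL8, IL1B, IL1A, IL11, LIF and CSF2) were found among the 13957 genes of the table. MDA-MB-231 is a line from a triple-negative breast cancer, and Fluc marks a derivative that carries a firefly luciferase gene. The RNA came from 2 samples given cordycepin at 50 μM and 2 samples given the vehicle DMSO, each for 2 h, and was sequenced as stranded libraries depleted of ribosomal RNA. Cordycepin is an adenosine analogue that lacks the 3' hydroxyl group. The members were chosen by gene symbol, at a time when the comparison of cordycepin with DMSO in the table was known, and several were noted then as low in expression. That comparison is the authors' own and is not used here, so no effect of cordycepin on these genes is given. What follows describes how strongly the genes were expressed, where they lie and which sequence features they share. The table gives 1 expression value per gene, taken here as the mean over the libraries. Sequencing depth is therefore unknown, and neither a spread between duplicates nor a test can be given. The labels do not say whether the duplicates were separate cultures.

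Cytokines and chemokines are small secreted proteins through which cells signal to each other in inflammation. Their genes are usually quiet and are switched on for a short time by transcription factors such as NF-κB and AP-1. Their mRNAs often carry AU-rich elements in the 3' UTR, to which proteins such as ZFP36 bind to speed up decay. IL6, IL11 and LIF belong to a family that signals through the shared receptor subunit IL6ST, whereas CXCL1, CXCL2, CXCL3 and CXCL8 attract neutrophils through CXCR1 and CXCR2. IL1A and IL1B encode the interleukin 1 cytokines, and CSF2 encodes the growth factor GM-CSF.

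A pair of sequence features that several of these genes have in common is shown first. IL1A has neither of them. In the promoters of CXCL1, CXCL2 and CXCL3 the same match to the kB consensus, the binding motif of NF-κB, stands in nearly the same surroundings, and IL6 has a related one. Each is given 5' to 3' along the gene's strand with the match in capitals, from RefSeq on GRCh38.p14.
CXCL2, chr4:74099249-74099288, minus strand: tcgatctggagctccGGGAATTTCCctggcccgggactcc
CXCL3, chr4:74038744-74038783, minus strand: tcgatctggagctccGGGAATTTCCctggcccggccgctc
CXCL1, chr4:73869299-73869338, plus strand: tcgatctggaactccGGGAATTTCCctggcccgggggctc
IL6, chr7:22727112-22727151, plus strand: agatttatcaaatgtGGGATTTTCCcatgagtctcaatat

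The second feature is the AU-rich nonamer TTATTTATT, as written in DNA letters, in the 3' UTR. The first copy after the stop codon is shown for the 4 members of the table that have one, and for CSF2, in which such an element is well known. The nonamer is in capitals, and the coordinates are those of the GENCODE annotation on GRCh38.
LIF, chr22:30240958-30240986, minus strand: ctccgggcccTTATTTATTatttaaacat
IL11, chr19:55365947-55365975, minus strand: aagccagatcTTATTTATTtatttatttc
CXCL8, chr4:73742664-73742692, plus strand: atgtaaagtaTTATTTATTtgaatctaca
CXCL2, chr4:74097590-74097618, minus strand: agtcttctatTTATTTATTtatttattta
CSF2, chr5:132076073-132076101, plus strand: tttaaaatatTTATTTATTtatttattta

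To see how strongly the genes were expressed, the authors' mean log2 CPM, a read count scaled to library size, was read for each member. LIF and IL11 lay close to the middle of the table, and CXCL8, IL6 and CXCL2 lay near its lower end. The median over all genes was 4.58, and the lowest gene of the table had 0.56, which is 1.47 CPM. LIF (ENSG00000128342, chromosome 22, 30240453 to 30246759 in the authors' table, GRCh38), a cytokine that maintains stem cells and acts in many tissues, had a mean log2 CPM of 4.96, or 31.1 CPM. IL11 (ENSG00000095752, chromosome 19, 55364382 to 55370463), a cytokine linked to bone remodelling and fibrosis, had 4.60, or 24.3 CPM. Both were above the median, at percentiles 56.4 and 50.5 of all genes.

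The other 3 members were in the lowest 25% of the table, below a mean log2 CPM of 2.88. CXCL8 (ENSG00000169429, chromosome 4, 73740541 to 73743716), which encodes interleukin 8, had 1.48, or 2.80 CPM, at percentile 8.71. IL6 (ENSG00000136244, chromosome 7, 22725884 to 22732002), the founding member of its family and an inducer of the acute phase response, had 1.44, or 2.71 CPM, at percentile 8.15. CXCL2 (ENSG00000081041, chromosome 4, 74097040 to 74099196), a neutrophil chemokine, was the lowest by mean log2 CPM, with 1.02, or 2.03 CPM, at percentile 2.79. CXCL2 was thus only 0.47 on the log2 scale above the lowest gene of the table. CXCL8 and IL6 differed by 0.05 in mean log2 CPM and IL11 and LIF by 0.35. Whether such gaps exceed the spread between duplicates cannot be said.

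**Figure D1:**
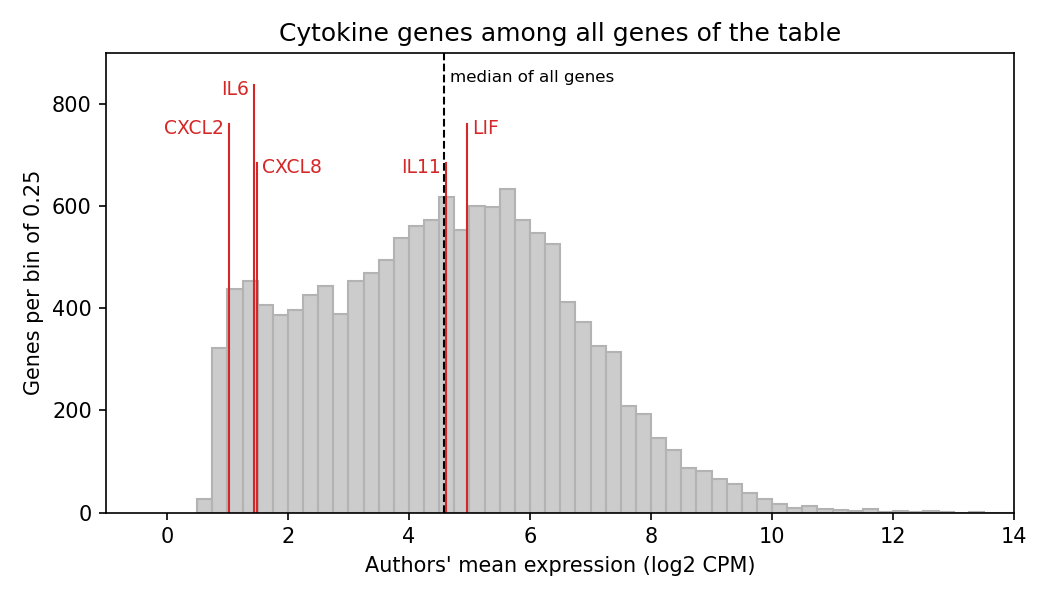
Number of genes in each bin of 0.25 of the authors' mean log2 CPM, with the 5 members found in the table as red lines and the median of all genes as a dashed line. IL11 and LIF stand at 4.60 and 4.96 around the centre, and CXCL2, IL6 and CXCL8 stand between 1.02 and 1.48 at the left edge.

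CXCL1, CXCL3, IL1A, IL1B and CSF2 were not among the genes of the table, by symbol or by gene ID. The share of all annotated genes that are in the table was not calculated. Neither this count nor those of the lists below can therefore be called high or low. The sources used here do not state the filter on low counts, so the level of these genes is not known and is not taken as 0. As the table starts at 0.56, its 3 low members were close to the level at which genes no longer appear.

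Longer transcripts yield more reads, so levels of different genes were compared per length, as log2 CPM less the log2 of the canonical transcript's length in kb. On this scale the median over the 13922 genes with an annotated length was 3.04. IL11, whose canonical transcript has 2378 bases, had 3.35, and LIF, with 3871 bases, had 3.00. The order of these genes was thus the other way round from that by mean log2 CPM. IL6 followed with 1.27 (1127 bases), then CXCL2 with 0.87 (1115 bases) and CXCL8 with 0.77 (1642 bases). With the length of the merged exons, IL6 had -0.67, CXCL2 0.54 and CXCL8 0.11, so that IL6 went from the highest to the lowest of these 3. LIF was 1.74 above IL6 by canonical length. By percentile of level per length, CXCL8 was at 14.8, CXCL2 at 16.1 and IL6 at 21.1, each higher than by mean log2 CPM, and CXCL8 in place of CXCL2 was the lowest.

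The receptors were looked up next, because a secreted factor acts on the cells that carry its receptor. Of 15 receptors, receptor subunits and antagonists, 7 were in the table. IL6ST, the signalling subunit shared by IL6, IL11 and LIF, had a level per length of 5.12 and was the highest of them. LIFR, which pairs with IL6ST to bind LIF, had 2.58, compared with 3.00 for its ligand. By mean log2 CPM the order was reversed, with 5.98 for LIFR and 4.96 for LIF. IL11RA, which binds IL11, had 0.79, and its mean log2 CPM of 1.58 placed it at percentile 9.71. IL6R, which binds IL6, was not in the table. OSMR, which pairs with IL6ST to bind oncostatin M, had 4.58, and its ligand gene OSM was not in the table.

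For the chemokines, neither CXCR1 nor CXCR2 was in the table, nor were ACKR1 and ACKR3, which bind chemokines without classical signalling. The interleukin 1 receptor was represented by IL1R1, with a level per length of 0.79, and its accessory protein IL1RAP, with 2.65. Its ligand genes IL1A and IL1B, the decoy receptor gene IL1R2 and the antagonist gene IL1RN were not in the table. For CSF2 the table contained the α subunit gene CSF2RA, at 2.15, but not the signalling subunit gene CSF2RB.

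**Figure D2:**
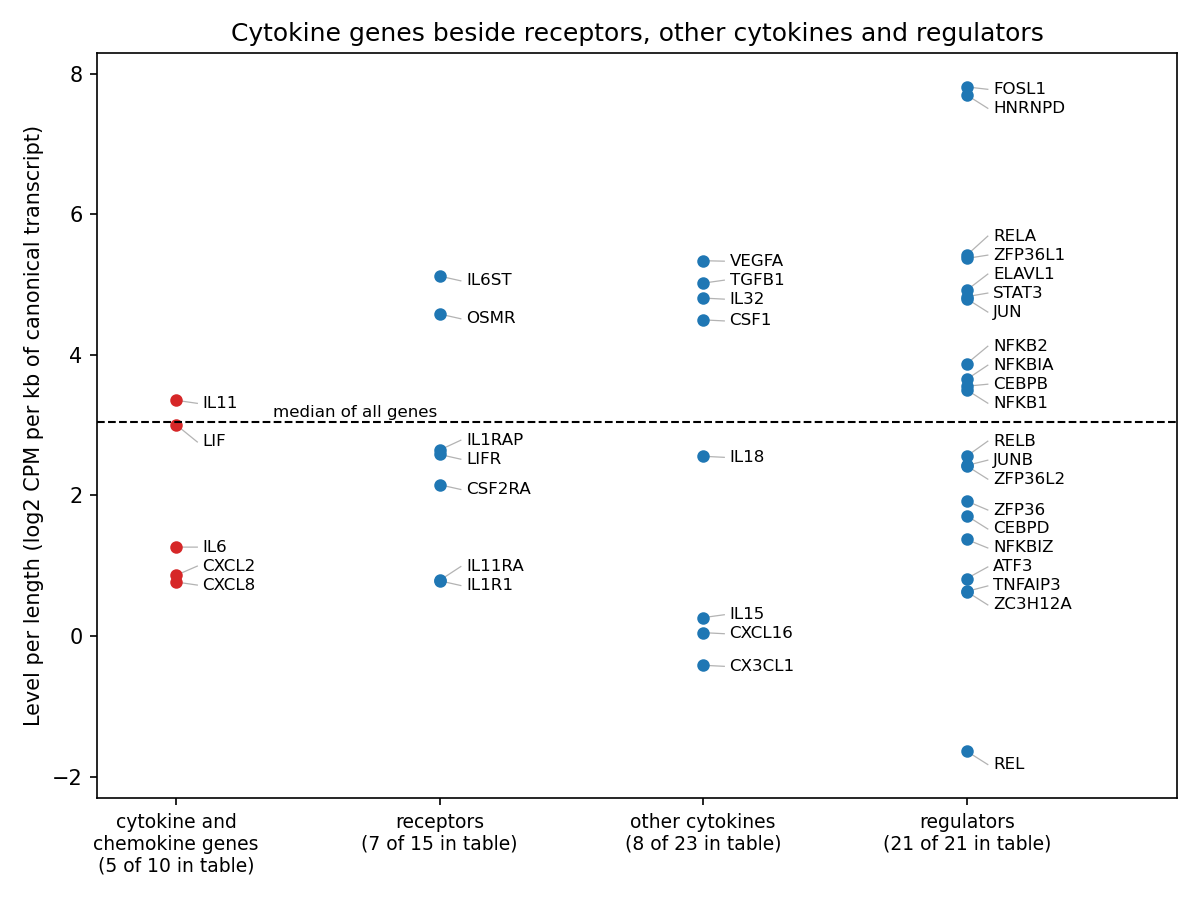
Level per length, as log2 CPM per kb of canonical transcript, of the genes found in the table, with the members in red and the listed receptors, other cytokines and regulators in blue; the dashed line is the median of all genes. IL11 and LIF lie at 3.35 and 3.00 near that line, and IL6, CXCL2 and CXCL8 lie between 0.77 and 1.27.

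Of 23 other cytokine and chemokine genes, 8 were in the table and 15 were not, compared with 5 and 5 of the members. The highest were VEGFA, the angiogenic factor, with a level per length of 5.34, TGFB1 with 5.02, IL32 with 4.81 and CSF1, the macrophage growth factor, with 4.50. All 4 exceeded IL11 on this scale. By mean log2 CPM, VEGFA, TGFB1 and CSF1 were also above IL11, but IL32, with 4.52, was below its 4.60. The chemokines among the 8, CXCL16 and CX3CL1, had levels per length of 0.05 and -0.41. By canonical length these were below IL6, CXCL2 and CXCL8. Other lengths, which changed the order of those members, were not tried for CXCL16 and CX3CL1. By mean log2 CPM, CXCL16 and CX3CL1 had 1.27 and 1.30, above CXCL2 with 1.02 and below IL6 and CXCL8. TNF, CCL2, CCL5, CCL20, CXCL5, CXCL6 and CXCL10 were not in the table.

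All 21 genes listed as regulators of cytokine genes were present, with no share over all annotated genes to set beside this count. By mean log2 CPM 9 of them were above the median of the table, and 15 were outside its lowest 25%. The median of the 21 was 4.31, below the 4.58 of all genes of the table. Among the NF-κB subunits, RELA had a level per length of 5.42, NFKB2 3.87, NFKB1 3.50 and RELB 2.56, whereas REL had -1.64. Among AP-1 genes, FOSL1 had 7.81, the highest of the list, JUN had 4.80, JUNB 2.43 and ATF3 0.82. CEBPB, a factor that acts on the IL6 promoter, had 3.55. Of the proteins that bind AU-rich elements, the decay factors ZFP36L1, ZFP36L2 and ZFP36 had 5.37, 2.42 and 1.92, ELAVL1, which stabilises mRNAs, had 4.92, and HNRNPD had 7.70. The inhibitors that NF-κB itself induces, NFKBIA and TNFAIP3, had 3.65 and 0.64. ZC3H12A, an RNase that cleaves IL6 mRNA, had 0.63.

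The cell type was checked with marker genes. VIM, CD44, AXL, CAV1, MSN and KRT18 had mean log2 CPM between 8.12 and 11.0, and ESR1 and PGR, the oestrogen and progesterone receptor genes, were not in the table. EPCAM and CDH1, which were listed as low or absent, had 3.68 each, below the median, and ERBB2, listed likewise, had 6.49, above it. By level per length EPCAM had 3.05, slightly above the median of 3.04, CDH1 had 1.41, below it, and ERBB2 had 4.3, above it. None of the 4 myeloid, 3 lymphoid and 3 endothelial markers was in the table, and 2 fibroblast markers, COL1A1 and PDGFRB, had mean log2 CPM of 3.36 and 3.28.

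The position of the chemokine genes was then considered. CXCL8, CXCL1, CXCL3 and CXCL2 lie in 1 cluster of 9 chemokine genes that spans 359 kb of chromosome 4 (73740519 to 74099196), with CXCL8 at one end and CXCL2 at the other. Of the cluster, the genes at its ends were in the table, and CXCL6, PF4V1, CXCL1, PF4, PPBP, CXCL5 and CXCL3 between them were not. IL1A and IL1B are neighbours on chromosome 2. IL6, IL11, LIF and CSF2 lie on chromosomes 7, 19, 22 and 5. In the annotation IL6 overlaps the antisense gene IL6-AS1 and STEAP1B, and LIF overlaps LIF-AS1 and LIF-AS2. None of these overlapping genes was in the table. The libraries were stranded, but whether strand was used in counting is not given in the sources used here, so reads from shared exon bases cannot be assigned with certainty. Of the 1127 bases of the canonical IL6 transcript, 53 (4.70%) lie in exons of IL6-AS1 and 46 (4.08%) in exons of STEAP1B, and of the 3871 bases of LIF, 86 (2.22%) lie in exons of LIF-AS1 and 83 (2.14%) in exons of LIF-AS2.

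CXCL1, CXCL2 and CXCL3 resemble each other closely, which matters for counting the reads of CXCL2. Their coding sequences have 324 bases each, and those of CXCL2 and CXCL3 were identical at 306 (94.4%), those of CXCL1 and CXCL2 at 303 (93.5%) and those of CXCL1 and CXCL3 at 294 (90.7%). Of the 4 other pairs aligned, IL1A and IL1B were identical at 55.9%, CXCL2 and CXCL8 at 55.2%, IL6 and LIF at 53.7% and IL6 and IL11 at 51.5%. These are percentages of the longer sequence, and the longest coding runs shared by these pairs had 9 to 11 bases. No unrelated pair was aligned, so whether these percentages reflect likeness was not tested. The longest run shared by the coding sequences of CXCL2 and CXCL3 has 97 bases, from base 9 to base 105 of CXCL2, and is shown because it is longer than a read of 75 bases.
CXCL2 and CXCL3: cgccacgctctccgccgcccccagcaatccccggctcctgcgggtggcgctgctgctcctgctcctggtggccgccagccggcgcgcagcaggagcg

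In spite of this likeness, most of the CXCL2 transcript could be told apart. Of its 1041 windows of 75 bases, 26 (2.50%) occurred unchanged in a transcript of another gene, namely CXCL1 or CXCL3. For CXCL3 this was 23 of 1001 windows and for CXCL1 3 of 1100. None of the windows of IL6, CXCL8, IL1A, IL1B, IL11, LIF or CSF2 occurred in another gene. The authors' methods describe reads in pairs, whereas windows were compared singly. A pair whose other read lies outside a shared stretch was therefore not considered. A read with a sequencing error or a mismatch allowed by the aligner could still be placed on the wrong gene of the trio, and how reads with several matches were counted is not given in the sources used here.

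Promoters were searched over 250 bases before to 50 bases after the start of each gene, on both strands. Of the 10 members, 9 had a promoter in the RefSeq table, and LIF did not. The kB consensus was found in 4 of them, IL6, CXCL1, CXCL2 and CXCL3. Its share was 7.09% of all 27305 genes with a promoter and 9.16% of the 9764 that are in the table. The match began 73 bases before the start of IL6, 79 before CXCL1, 78 before CXCL2 and 79 before CXCL3. In the 3 chemokine promoters the opposite strand also matched, over bases shifted by 1, and this overlap was counted as 1 place. Around it the promoters of CXCL2 and CXCL3 shared an unbroken run of 37 bases. CXCL8 had no match to the consensus, but its longest run in common with the CXCL2 promoter, ggaatttcc, lies within the CXCL2 match. The AP-1 motif TGANTCA was found in 3 members, compared with 9.37% of all genes with a promoter and 6.86% of those in the table. It began 137 bases before the start of CXCL8, as TGACTCA, and 96 before that of IL11, as TGAGTCA, and IL1A, for which the RefSeq table has 2 start sites, contained both forms. Within the window searched, the kB consensus and the AP-1 motif occurred together in none of the 9 members with a promoter. Sites further from the start were not looked for. Only full matches to the consensus were counted, so a kB site that departs from it in CXCL8 or another member would be missed. A match to a motif does not show that a factor was bound in these cells.

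The AU-rich nonamer was found in the canonical 3' UTR of 8 of the 10 members, compared with 9.84% of the 11583 genes of the table with a 3' UTR. Of the 5 members that are in the table, 4 had it. Among genes whose 3' UTR length lay within the members' range of 318 to 3198 bases, the share was 7.37%. At least 3 copies, which may overlap, were found in 4 members, of which 2 are in the table, and in 0.812% of the genes of the table. No test was made of these shares, as the members were not drawn at random and AU-rich elements are well known in cytokine mRNAs.

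IL11 had the most copies, 6 in 1625 bases, and CXCL2 had 5 in 716 bases, of which 4 overlap in 1 stretch. CSF2 had 3 in the shortest 3' UTR, of 318 bases. The CXCL2 and CXCL1 stretches both start 148 bases after the stop codon, while CXCL3 has 1 copy at base 471. LIF had 2 copies, both near the far end of its 3' UTR of 3198 bases, at bases 2675 and 3098. CXCL8 had 1 copy at base 210, and IL1B had 2 overlapping copies from base 348. IL6 and IL1A had none, although each contains the shorter TATTTAT 3 times. That shorter motif was far more common, found in 36.7% of the genes of the table with a 3' UTR. IL11 and CXCL2, the members of the table with the most copies, had levels per length of 3.35 and 0.87.

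**Figure D3:**
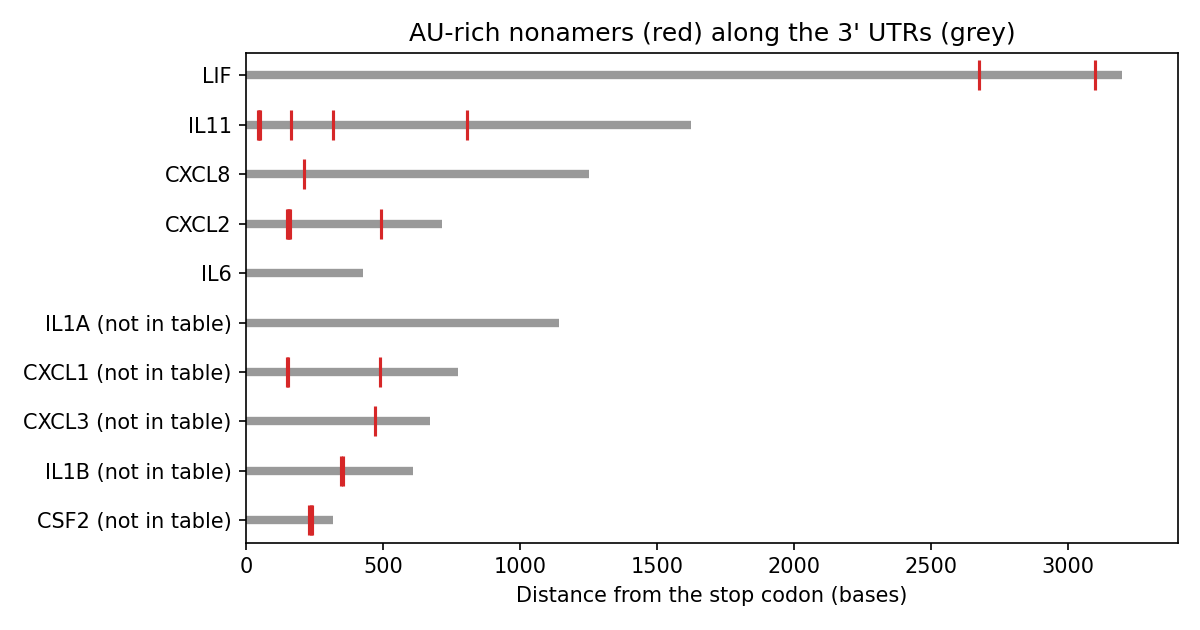
Canonical 3' UTRs of the 10 members drawn to scale from the stop codon in bases, with each copy of the AU-rich nonamer as a red mark. Overlapping copies, drawn as thicker marks, occur in CXCL1, CXCL2, IL11, IL1B and CSF2, the marks of LIF lie at bases 2675 and 3098, and IL6 and IL1A have none.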

How the data were processed

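RNA-seq of 2 cordycepin and 2 DMSO samples of MDA-MB-231 Fluc cells was used. The authors' methods name rsubread and the assembly GRCh38.p13, while the submitters' processing notes list hg38, TopHat, HTSeq, DESeq and Cufflinks with no role. The authors' deposited table gives each gene's mean expression as log2 CPM, taken here as the mean over all 4 libraries because its header names no group. How libraries were scaled and which prior count or filter was used is not given in the sources used here. Its 4 columns of the authors' own comparison (log2 fold change, F statistic, p-value and adjusted p-value) were not used. It holds 0 further columns of values per sample, so cordycepin was not compared with DMSO.

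Gene types, transcripts and 3' UTRs came from GENCODE release 44 (GRCh38), which held 13922 (99.7%) of the gene IDs. Printed promoter and 3' UTR sites were compared with the genome, and 36 of 36 sites found were identical. A percentile is the percentage of genes at or below a value. Windows of 75 bases were compared with all GENCODE transcripts on the same strand. Coding sequences were aligned globally. The members and lists were chosen with earlier results of these data known, and genes were named as members, as genes of the lists, or for overlapping or neighbouring a member. The promoter search and the likeness of pairs outside CXCL1, CXCL2 and CXCL3 were added after the sequences had been seen. The steps for percentiles, motif positions, longest shared runs, coding ranges and merged exons were tested on simulated data. The promoter search, the alignments and the final count of shared windows were not. Python 3.11.15, numpy 2.4.6, pandas 2.3.3, biopython 1.88 and matplotlib 3.10.9 were used.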

Additional observations from a re-analysis of the deposited data

How the results depend on the processing

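No paired analysis was possible because the table gives 1 mean per gene and no values per library, and for the same reason no replicate could be left out and no count test, filter on low counts or replicate block was run. Among protein-coding genes only, the percentiles were 50.2 for LIF, 43.7 for IL11, 5.18 for CXCL8, 4.79 for IL6 and 1.57 for CXCL2, and 1 member instead of 2 was above the median. By level per length they were 49.5, 55.5, 14.8, 21.1 and 16.1. With the length of merged exons, levels per length were 3.18 for IL11, 0.11 for CXCL8, -0.67 for IL6 and 0.54 for CXCL2, and 2 of 5 members kept their place in the order. With the length in the authors' table, an alternative chosen after seeing the data, they were 3.18, 0.32, 0.39 and 0.54, and 3 kept their place. LIF had 3.00 with each length. Of the other cytokines, 4 instead of 8 remained when the lowest 25% of genes was left out. Of the receptors, 6 instead of 7 then remained, and of the regulators 15 instead of 21. Matching by gene ID also found 5 members. In any coding transcript the nonamer was again found in 8 members. The shorter TATTTAT was found in all 10, but also in 36.7% of the genes of the table with a 3' UTR. Among the 5 members, the level per length of IL6 moved most with the length chosen. The depth is unknown, so the precision of every level is too.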
